A study of Mus musculus with 15 samples.

Results

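Fatty acid uptake, storage and oxidation were followed through 38 genes, listed by name and found in the gene column of both count tables, out of 42396 gene entries in each. The genes code for proteins that carry fatty acids into the muscle fibre, activate them, store and release them, move them into mitochondria and oxidise them, together with 2 receptors that switch such genes on. RNA came from the tibialis anterior, a fast shin muscle, of C57BL/6 mice sampled 2 months after the hindlimb received the adeno-associated virus AAV6. In the C-del groups the virus carried a form of LSMEM2 named C-del, a term the labels do not explain. In the mock groups it carried the green fluorescent protein EGFP, so every group received virus. There were 4 C-del and 4 mock libraries from males, and 4 C-del and 3 mock libraries from females. Ages of the mice are not in the labels used here. Each sex has a table of its own, so a difference between sexes cannot be told apart from one between tables. Whether each library is a separate animal is not stated in the labels, so p-values measure only library-to-library spread, which may be technical.

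A working muscle draws fatty acids from blood lipoproteins and from its own lipid droplets. They are bound to coenzyme A, passed across the mitochondrial membranes as carnitine esters, and shortened step by step in the β-oxidation spiral, whose electrons enter the respiratory chain through electron transfer flavoprotein. The carnitine step is held back by malonyl-CoA, and the peroxisome proliferator-activated receptors (PPARs), which bind fatty acids, raise transcription of many of these genes. Oxidative fibres hold more of this machinery than glycolytic ones.

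Total counts were 14297620 to 17744015 per male library and 9285145 to 12054871 per female library. Levels below are in CPM, the counts scaled to a fixed library size, and a fold change sets C-del against mock. Lsmem2 itself had 481, 2360, 1860 and 1290 CPM in male C-del libraries, against 28.5 to 29.7 CPM in male mock libraries. In females it had 1360 to 2710 CPM in C-del libraries, against 30.0 to 32.8 CPM in mock libraries. It rose in both sexes (male log2 fold change 5.68, adjusted p = 0.00223; female 5.98, adjusted p = 3.05e-05). C-del library 1 of the males held the least Lsmem2 of the 8 C-del libraries. The labels name skeletal muscle while the extraction text speaks of hearts. The 4 skeletal muscle markers summed to 66600 CPM or more in every group's lowest library, and the 6 heart markers to at most 27.3 CPM in any library. All tissue was sequenced in bulk, so fewer cells of a type and less RNA per cell cannot be told apart.

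Counted from the members' own entries, the level per kilobase of exon in mock males put the small cytosolic fatty acid carrier Fabp3 first, at 203 ± 18.2 CPM per kb (SD, n = 4). It was followed by Etfb at 142 ± 4.84 CPM per kb and by Crat at 133 ± 5.37 CPM per kb. These are a subunit of electron transfer flavoprotein and carnitine acetyltransferase. Etfa, Acadl and Acaa2 came next at 121, 120 and 116 CPM per kb, and the first 2 of these 3, like the last 2, lay within their spread of each other. At the low end stood Slc27a4 at 3.08 ± 0.279, Ppard at 2.76 ± 0.254, Ucp2 at 1.89 ± 0.0999 and Cpt1a at 1.09 ± 0.17 CPM per kb. The length used is the union of all annotated exons of a gene, and places depend on it. Before division by length, Ucp2 had 13.2 CPM in mock males, above Acot2 at 9.92 CPM, which ranks higher per kb. The carnitine palmitoyltransferase of muscle, Cpt1b, stood at 51.9 ± 0.975 CPM per kb, far above Cpt1a, the liver form. In mock females Fabp3 was again first, at 333 ± 47.2 CPM per kb (SD, n = 3), followed by Etfb at 200 ± 46.2 and Acadl at 162 ± 20.8 CPM per kb. Fabp3, Acadvl, Ppard and Acadl each have a second entry in the tables for a further copy. For Fabp3 and Ppard that entry held the same counts in 15 of 15 libraries, and for Acadvl in 14 of 15, while for Acadl it held 29.2% to 33.2% of the counts. Whether such entries split the reads of a gene or count the same reads again was not tested. With the copies summed, the order in mock males was Fabp3 at 406 ± 36.5, Acadvl at 159 ± 4.13, Acadl at 158 ± 6.25 and Etfb at 142 ± 4.81 CPM per kb, and Ppard at 5.52 ± 0.513 CPM per kb lay above Acot2, Lipe and Slc27a4. In mock females it was Fabp3 at 667 ± 94.5, Acadl at 210 ± 27.9, and Acadvl and Etfb both at 200 CPM per kb. The places of these 4 genes therefore depend on how their copies are counted. On the CPM scale with copies summed, Fabp3 had 431 ± 89.3 CPM with C-del and 334 ± 30 CPM with mock in males (SD, n = 4 each), and the members called in each comparison did not change in number.

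**Figure D1:**
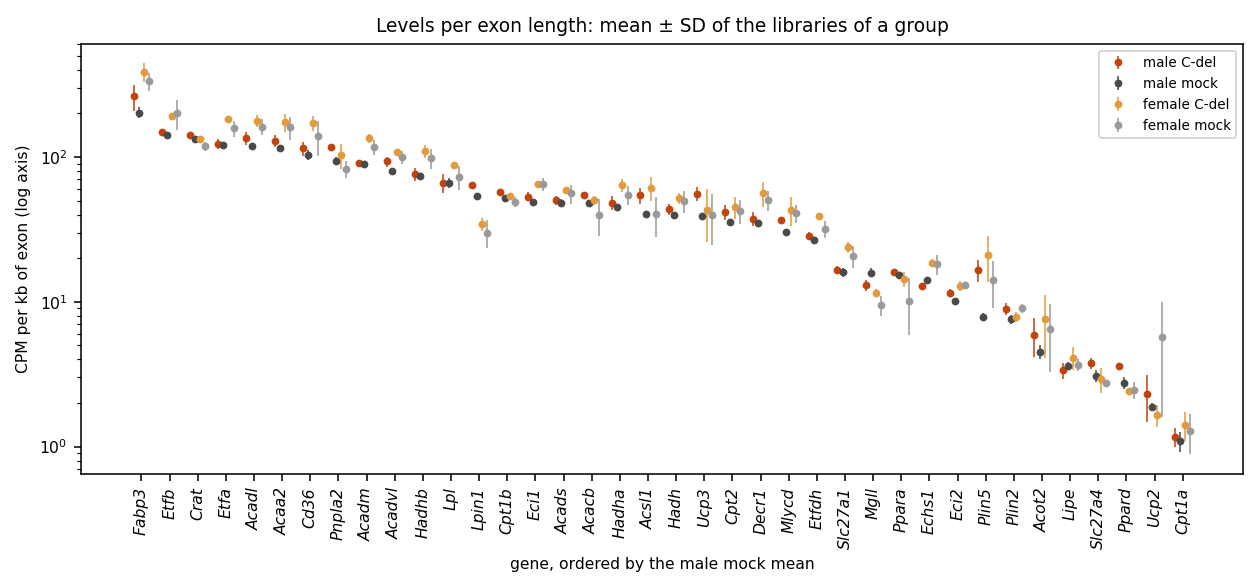
Level of each of the 38 genes in CPM per kilobase of exon on a log axis, by group, with mean and SD, from each gene's own entry without further copies. Fabp3 stands highest in mock males at 203 CPM per kb and Cpt1a lowest at 1.09 CPM per kb.

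In males, 10 of the 38 genes rose in C-del muscle and 1 fell, at an adjusted p under 0.05 in edgeR's quasi-likelihood test over 14543 genes. Of all genes tested, 11.2% were called, 5.8% as higher and 5.37% as lower. The genes that rose stood at several stages of the route: the lipid droplet protein Plin5, the lipase Pnpla2 and the lipid phosphatase Lpin1, the activating enzyme Acsl1, the transporter Slc27a4, the malonyl-CoA enzymes Mlycd and Acacb, the first enzyme of the spiral Acadvl, the uncoupling protein Ucp3 and the receptor Ppard. The monoacylglycerol lipase Mgll fell. The median log2 fold change of the 38 was 0.139, against -0.005 over all genes tested, and 34 of 38 fold changes were above 0, against 49% of all genes. In 13 members all C-del values exceeded all mock values, which held for 9.05% of all genes, and in 1 member, Echs1, all C-del values were below all mock values, which held for 8.51%. DESeq2 called 9 higher, against 5.64% of all genes, and 1 lower, against 4.66%. When the male contrast was taken from a fit of all 15 libraries, Plin5 and Ppard alone kept an adjusted p under 0.05. Without mock libraries 3 and 4, 4 genes kept one: Acsl1, Mgll, Plin5 and Ucp3. Without C-del libraries 1 and 2, 10 members passed, 9 of them among the 11 called with all male libraries. The 10 tendon markers summed to 206 to 350 CPM in male C-del libraries. In male mock libraries 1 to 4 the sums were 374, 336, 560 and 354 CPM, highest in library 3. Col11a1 among them had 3.36, 3.22, 32.3 and 20.1 CPM there, so library 4 was high in it too. Of the 10 male tendon fold changes, 0 were above 0 (median log2 -0.928). At an unadjusted p under 0.05, 6 were lower. With edgeR 1 was called lower, Tnmd (adjusted p = 0.0438), and with DESeq2 5. The part of tendon RNA in the member changes was not tested.

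**Figure D2:**
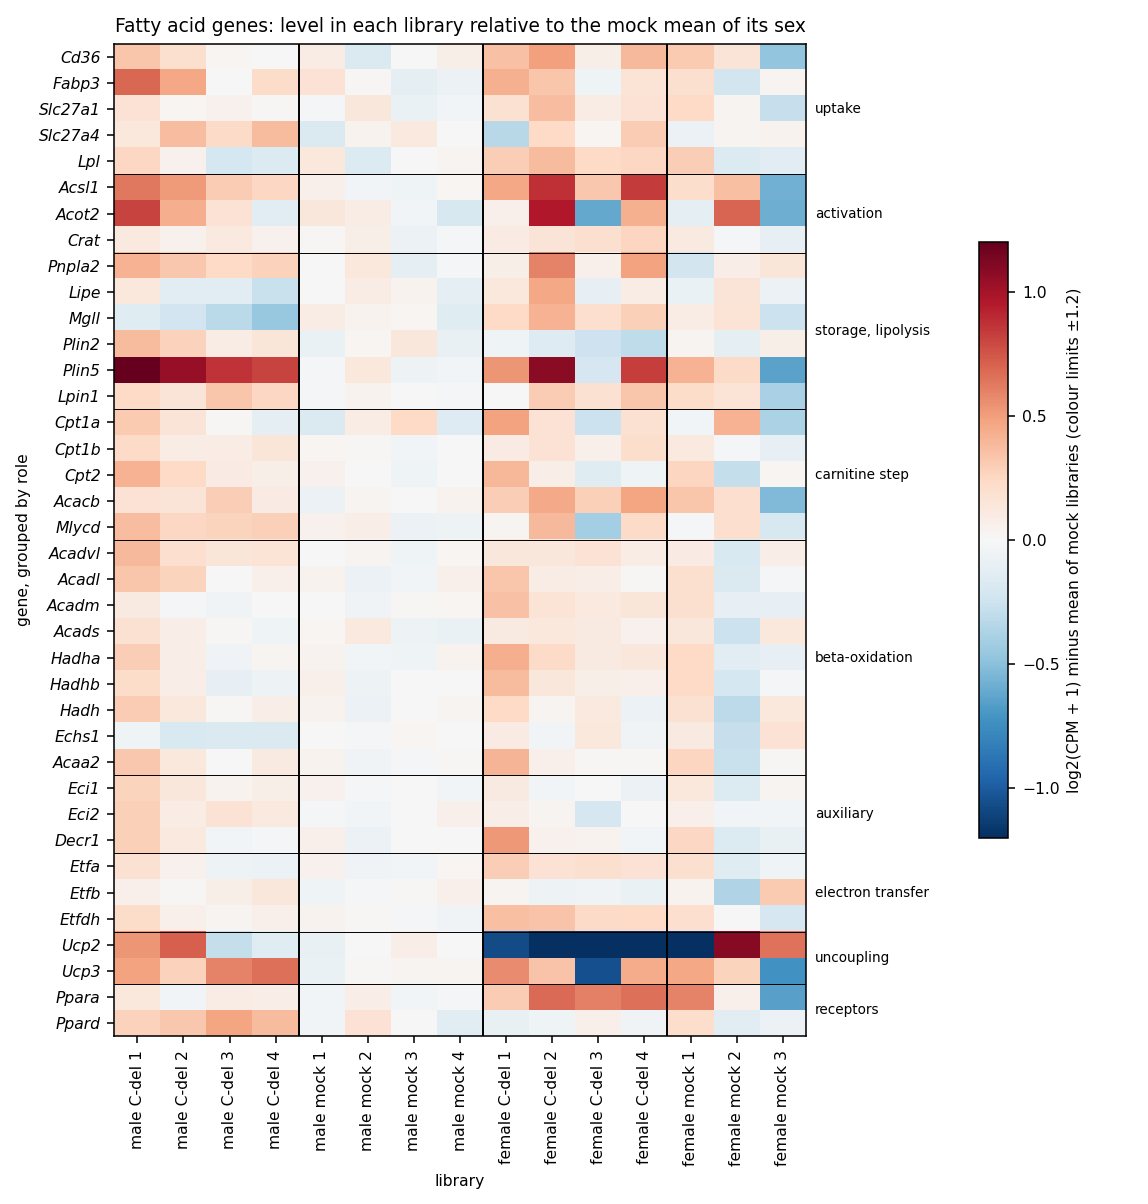
Level of each of the 38 genes in each library, as log2(CPM + 1) minus the mean of the mock libraries of the same sex, with genes ordered by role and C-del libraries left of mock libraries within each sex. Male C-del library 1 is the highest of the male C-del libraries, with a median of 0.281 over the 38 genes. Values beyond the colour limits share the end colours.

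Among storage and lipolysis genes, 3 of 6 rose and 1 fell in males. Plin5, which coats lipid droplets and ties them to mitochondria, had 42.7, 35.0, 30.7 and 29.6 CPM in male C-del libraries, against 16.1, 18, 15.6 and 16 CPM in male mock libraries. The lowest C-del library was well above the highest mock library. It rose 2.1-fold (log2 fold change 1.07, SE 0.109, adjusted p = 9.43e-05). In females Plin5 had 40.8, 60.3, 24.1 and 50.4 CPM in C-del libraries, against 37.6, 32.9 and 17.5 CPM in mock libraries. C-del library 3 fell among the female mock values, and the difference did not pass (log2 fold change 0.58, SE 0.337, adjusted p = 0.541). Pnpla2, the adipose triglyceride lipase that takes the first fatty acid off a stored triglyceride, had 380, 355, 335 and 344 CPM in male C-del libraries, against 284, 311, 263 and 280 CPM in male mock libraries. Its groups did not overlap, and it rose 1.24-fold (log2 0.31, SE 0.0555, adjusted p = 0.00238). In females it had 261, 375, 258 and 347 CPM in C-del libraries, against 212, 262 and 274 CPM in mock libraries, with C-del libraries 1 and 3 inside the mock range (log2 fold change 0.32, adjusted p = 0.492).

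Lpin1, which makes diacylglycerol from phosphatidic acid, had 613, 577, 655 and 618 CPM in male C-del libraries, against 512, 533, 519 and 510 CPM in male mock libraries. All C-del values were higher, and it rose 1.19-fold (log2 0.25, SE 0.0455, adjusted p = 0.00304). Female libraries held less Lpin1, with 287, 354, 325 and 361 CPM in C-del, against 333, 321 and 219 CPM in mock. Mgll, which releases the last fatty acid, had 72.8, 68.8, 64.2 and 58.6 CPM in male C-del libraries, against 85.7, 83.1, 81.9 and 72.6 CPM in male mock libraries. The ranges met, because C-del library 1 reached mock library 4, and Mgll fell by 0.29 on the log2 scale (SE 0.0695, adjusted p = 0.0155). Without mock library 1 its adjusted p was 0.0582. In females the order was the other way round: 56.5, 63.7, 54.8 and 58.2 CPM in C-del libraries, against 50.8, 53.4 and 39.7 CPM in mock libraries, with no overlap (log2 fold change 0.28, SE 0.125, adjusted p = 0.419). The droplet protein Plin2 had 34.8, 32.5, 28.4 and 29.4 CPM in male C-del libraries, against 25.1, 27.1, 29.3 and 25.0 CPM in male mock libraries (log2 fold change 0.23, adjusted p = 0.0632). Female Plin2 was 30.4, 28.4, 26.5 and 25.4 CPM in C-del libraries, against 32.5, 29.3 and 33.3 CPM in mock libraries, so the mock libraries were the higher ones apart from C-del library 1 (log2 fold change -0.19, adjusted p = 0.521). Lipe, the hormone-sensitive lipase, did not pass, at 19.7 ± 2.46 CPM with C-del and 21.2 ± 1.35 CPM with mock in males (SD, n = 4 each).

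Of 5 uptake genes, Slc27a4 alone passed in males. This fatty acid transport protein had 14.9, 17.8, 16 and 17.9 CPM in male C-del libraries, against 11.9, 14, 14.8 and 13.6 CPM in male mock libraries. The groups were narrowly apart, and the 1.23-fold rise (log2 0.30, SE 0.0876, adjusted p = 0.0423) missed the threshold with DESeq2 (adjusted p = 0.064) and whenever any 1 of 6 libraries was left out. Female Slc27a4 was 9.48 to 15.2 CPM in C-del libraries, against 11.5 to 12.5 CPM in mock libraries. The better expressed carriers gave no call in males. Fabp3 had 270, 230, 167 and 194 CPM in male C-del libraries, against 188, 169, 153 and 159 CPM in male mock libraries, so libraries 1 and 2 lay above all others and library 3 inside the mock range (log2 fold change 0.37, SE 0.151, adjusted p = 0.182). The membrane receptor Cd36 averaged 411 ± 45.2 CPM with C-del and 373 ± 30.1 CPM with mock in males (SD, n = 4 each). The transporter Slc27a1 averaged 97.7 ± 5.33 CPM with C-del and 93.3 ± 6.48 CPM with mock in males. Lpl, the lipase that frees fatty acids from lipoproteins at the vessel wall, averaged 692 ± 102 CPM with C-del and 697 ± 57.3 CPM with mock in males. Female Lpl was 934, 989, 896 and 903 CPM in C-del libraries, against 934, 680 and 691 CPM in mock libraries. Mock library 1 stood at the C-del level (log2 fold change 0.28, SE 0.131, adjusted p = 0.445).

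Acsl1, the main long-chain acyl-CoA synthetase of muscle, had 655, 604, 521 and 501 CPM in male C-del libraries, against 441, 412, 408 and 428 CPM in male mock libraries. No mock library reached the lowest C-del library, and Acsl1 rose 1.35-fold (log2 0.43, SE 0.0752, adjusted p = 0.00318). In females it had 564, 751, 513 and 734 CPM in C-del libraries, against 475, 527 and 274 CPM in mock libraries. C-del library 3 was below mock library 2, and mock library 3 was far below the rest (log2 fold change 0.59, SE 0.231, adjusted p = 0.354). The other 2 genes that handle acyl groups did not pass in either sex: Acot2, a mitochondrial thioesterase, averaged 13.0 ± 3.89 CPM with C-del and 9.92 ± 1.07 CPM with mock in males (SD, n = 4 each). Crat averaged 761 ± 19.4 CPM with C-del and 718 ± 28.9 CPM with mock in males.

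At the carnitine step, the 2 genes that rose in males act on malonyl-CoA in opposite directions. Mlycd, which breaks it down, had 116, 106, 108 and 109 CPM in male C-del libraries, against 92.8, 94.6, 85.1 and 85.8 CPM in male mock libraries. It rose 1.22-fold with no overlap (log2 0.29, SE 0.0508, adjusted p = 0.00213). Acacb, which makes malonyl-CoA at the mitochondrial surface, had 521, 516, 567 and 496 CPM in male C-del libraries, against 440, 475, 461 and 478 CPM in male mock libraries. It rose 1.13-fold (log2 0.18, SE 0.049, adjusted p = 0.0286), a call lost whenever any 1 of 5 libraries was left out, at adjusted p values from 0.0532 to 0.0912. In females Mlycd was 91.0 to 158 CPM in C-del libraries, against 106 to 139 CPM in mock libraries, and Acacb 455 to 518 CPM in C-del libraries, against 257 to 468 CPM in mock libraries. Both sets overlapped. Cpt1b had 205, 186, 186 and 193 CPM in male C-del libraries, against 178, 176, 171 and 174 CPM in male mock libraries, and Cpt2, the inner membrane enzyme, had 115, 101, 91.6 and 89.9 CPM in male C-del libraries, against 88.7, 86.0, 82.6 and 85.0 CPM in male mock libraries. Neither overlapped, and both missed the threshold (Cpt1b log2 fold change 0.14, adjusted p = 0.0584; Cpt2 log2 fold change 0.21, adjusted p = 0.0581). Cpt1a averaged 8.96 ± 1.3 CPM with C-del and 8.35 ± 1.3 CPM with mock in males (SD, n = 4 each).

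Of the 9 enzymes of the β-oxidation spiral, 1 rose in males. Acadvl, the very-long-chain acyl-CoA dehydrogenase that opens the spiral, had 280, 246, 236 and 240 CPM in male C-del libraries, against 215, 219, 206 and 217 CPM in male mock libraries. All C-del libraries were higher, library 1 most (1.17-fold, log2 0.23, SE 0.0535, adjusted p = 0.0142). Exons of Acadvl overlap those of Dvl2 on the other strand over 1151 bases, and those of the called Acsl1 overlap Gm45244 on the other strand over 1039 bases. On the same strand, Cpt1b shares 2744 of its 3372 exon bases with Gm44502, and Etfb shares 678 of its 1164 with further annotated genes. How strand and overlaps were counted is not given in the sources at hand, so the values of these genes are less sure. Without male C-del libraries 1 and 2, which were high in macrophage markers, the adjusted p of Acadvl was 0.0519. The enoyl-CoA hydratase Echs1, which adds water to the enoyl-CoA intermediate, pointed the other way, with 114, 103, 104 and 104 CPM in male C-del libraries, against 117, 116, 120 and 118 CPM in male mock libraries. Its groups did not overlap, and it just missed the threshold (log2 fold change -0.14, SE 0.0451, adjusted p = 0.0531). The other 7 had male log2 fold changes of 0.01 for Acadm, 0.04 for Hadhb, 0.06 for Acads, 0.10 for Hadha, 0.14 for Hadh, 0.15 for Acaa2 and 0.17 for Acadl. These were the medium-chain, short-chain and long-chain dehydrogenases, the trifunctional protein subunits, the hydroxyacyl dehydrogenase and the thiolase, and none passed. The spiral as a sum had 2250 to 2720 CPM in male C-del libraries, against 2240 to 2350 CPM in male mock libraries, and its median log2 fold change was 0.097.

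The 3 auxiliary enzymes for unsaturated fatty acids, Eci1, Eci2 and Decr1, gave 0 calls in males with edgeR or DESeq2, with 2 higher at an unadjusted p under 0.05. Eci2 had 69.5, 60.5, 63.9 and 61.8 CPM in male C-del libraries, against 55.6, 55.4, 56.6 and 59.3 CPM in male mock libraries. They were separate, with an adjusted p of 0.0568 (log2 fold change 0.17, SE 0.0545), while female Eci2 was 63.1 to 76.6 CPM in C-del libraries, against 70.7 to 75.8 CPM in mock libraries. The 3 electron transfer genes gave 0 calls with either tool and 0 at an unadjusted p under 0.05, with male log2 fold changes of 0.03 for Etfa, 0.07 for Etfb and 0.09 for Etfdh. Etfdh, which hands the electrons to ubiquinone, had 306, 302, 280 and 280 CPM in female C-del libraries, against 274, 239 and 207 CPM in female mock libraries. The female groups did not overlap (log2 fold change 0.29, SE 0.117, adjusted p = 0.371).

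Ucp3, a mitochondrial carrier of skeletal muscle that is induced when fatty acids are plentiful, had 172, 149, 185 and 195 CPM in male C-del libraries, against 116, 124, 125 and 125 CPM in male mock libraries. It rose 1.43-fold with no overlap (log2 0.51, SE 0.0696, adjusted p = 0.000437). In females Ucp3 had 175, 150, 56.1 and 161 CPM in C-del libraries, against 163, 142 and 71.0 CPM in mock libraries. C-del library 3 and mock library 3 stood low together, and the log2 fold change was 0.11 (SE 0.395, adjusted p = 0.928). Its paralogue Ucp2, found in many tissues and abundant in macrophages, had 19.5, 22.4, 10.7 and 11.9 CPM in male C-del libraries, against 12.3, 13.3, 14.1 and 13.2 CPM in male mock libraries. Male libraries 1 and 2 with C-del were the high ones. In females Ucp2 had 13.7, 12.3, 8.79 and 11.4 CPM in C-del libraries, against 8.23, 64.8 and 47.5 CPM in mock libraries. The female fold change rested on mock libraries 2 and 3 (log2 -1.81, SE 0.534, adjusted p = 0.225; 0.49 without them). The summed 12 macrophage markers were 205, 223, 67.2 and 85.9 CPM in male C-del libraries, against 82.4 to 102 CPM in male mock libraries. In females they were 61.5 to 129 CPM in C-del libraries, against 100, 694 and 320 CPM in mock libraries 1 to 3. Of the macrophage markers tested, 0 of 11 passed with edgeR in each sex, with 0 at an unadjusted p under 0.05 in males and 10 lower in females, where DESeq2 called 4 lower. The high Ucp2 libraries were thus those high in macrophage markers in both sexes, and the part of these markers in the result was not tested.

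Ppard, the PPAR whose overexpression raises oxidative fibres in mouse muscle, had 25.3, 26.1, 29.2 and 27.2 CPM in male C-del libraries, against 20.2, 23.4, 20.6 and 18.9 CPM in male mock libraries. All C-del libraries were higher, and it rose 1.3-fold (log2 0.37, SE 0.0737, adjusted p = 0.0048). Female Ppard was 17.4, 17.7, 19.3 and 17.9 CPM in C-del libraries, against 21.5, 16.8 and 17.5 CPM in mock libraries, with a log2 fold change of -0.04 (SE 0.124, adjusted p = 0.921). Ppara had 57.2 to 64.1 CPM in male C-del libraries, against 57.0 to 61.9 CPM in male mock libraries. In females it was 45.7, 59.3, 56.6 and 58.7 CPM in C-del libraries, against 56.0, 38.4 and 23 CPM in mock libraries. The 2 low female mock libraries were again 2 and 3 (log2 fold change 0.49, adjusted p = 0.489).

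**Figure D3:**
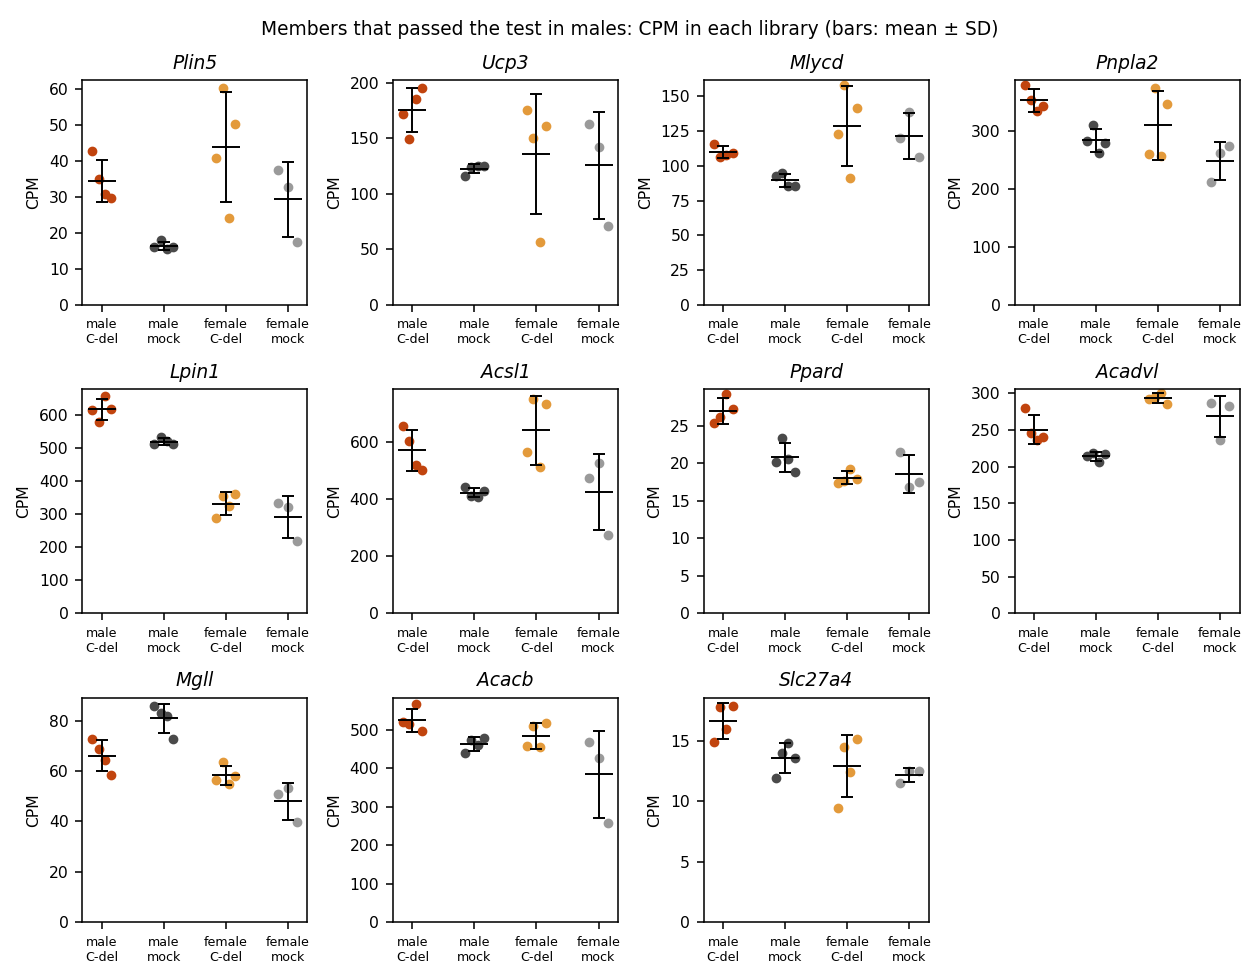
CPM in every library for the members called in males, with points for libraries and bars for the mean and SD of each group, C-del left of mock. Plin5 has the largest male fold change of these genes, with 29.6 to 42.7 CPM in C-del against 15.6 to 18 CPM in mock, and Mgll lies lower in male C-del muscle but higher in female C-del muscle.

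Many of these genes are known PPAR targets, so the promoters of the leading members were read from RefSeq (GRCm38.p6). The DNA just upstream of the start is shown for the 3 genes called in the average of the sexes and for Ucp3, 5′ to 3′ on the gene's strand, at chr17:56117597-56117798 (minus strand), chr8:46470787-46471036 (plus), chr7:141454938-141455187 (plus) and chr7:100472741-100472989 (plus). The genes themselves, all protein-coding, lie at chr17:56111601-56117596 (Plin5), chr8:46471037-46536051 (Acsl1), chr7:141455198-141460743 (Pnpla2) and chr7:100472990-100486432 (Ucp3) in the GENCODE annotation. Bases annotated as exon are left out. Capitals mark matches to the motifs named next.
Plin5: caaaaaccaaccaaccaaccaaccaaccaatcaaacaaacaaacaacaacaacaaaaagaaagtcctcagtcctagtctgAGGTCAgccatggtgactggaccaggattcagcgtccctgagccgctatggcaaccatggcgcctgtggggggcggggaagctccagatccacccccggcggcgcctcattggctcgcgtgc
Acsl1: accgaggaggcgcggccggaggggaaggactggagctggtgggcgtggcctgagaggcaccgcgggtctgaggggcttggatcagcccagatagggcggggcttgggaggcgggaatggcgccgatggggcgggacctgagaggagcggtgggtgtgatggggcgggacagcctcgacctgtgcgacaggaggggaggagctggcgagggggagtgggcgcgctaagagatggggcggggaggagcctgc
Pnpla2: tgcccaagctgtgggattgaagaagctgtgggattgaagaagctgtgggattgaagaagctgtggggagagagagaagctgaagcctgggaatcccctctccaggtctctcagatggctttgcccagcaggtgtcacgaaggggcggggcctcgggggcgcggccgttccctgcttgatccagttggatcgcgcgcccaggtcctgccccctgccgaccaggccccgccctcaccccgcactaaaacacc
Ucp3: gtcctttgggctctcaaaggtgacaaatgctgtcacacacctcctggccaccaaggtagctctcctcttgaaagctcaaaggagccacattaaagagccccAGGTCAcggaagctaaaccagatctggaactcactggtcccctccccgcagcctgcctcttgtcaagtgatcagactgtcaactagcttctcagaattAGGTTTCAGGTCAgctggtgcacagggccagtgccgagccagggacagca

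A promoter of 250 bases upstream was present for 33 of the 38 members and for 27025 genes, and both strands were searched. The PPAR element, a direct repeat spaced by 1 base (DR1: AGGTCA, any base, AGGTCA, at most 2 mismatches), was found in 5 of 33 members (15.2%), against 3.72% of all genes. The members holding it were Plin2, Cd36, Ucp3, Echs1 and Etfa, of which Ucp3 was called in males. Their matches are shown on the motif's strand, with capitals for letters that match the motif, and lie 225 bases or less upstream of the start, at chr4:86670272-86670284, chr5:17835947-17835959, chr7:100472940-100472952, chr7:140116492-140116504 and chr9:55512308-55512320.
Plin2: AGGTCAggGGTCc
Cd36: AaGTCAgAGGcCA
Ucp3: AGGTttcAGGTCA
Echs1: AGGTCAcgGGTCc
Etfa: AGGgCAaAGGTaA

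The single repeat unit, AGGTCA, which a DR1 can contain, was found in 9 of 33 members (27.3%), against 15.8% of all genes. In the sequences above it stands once in Plin5 and at 2 places in Ucp3, while the Acsl1 and Pnpla2 promoters hold neither motif. The oestrogen-related receptor element TCAAGGTCA, the cyclic AMP element TGACGTCA and the glucocorticoid element (AGAACA, any 3 bases, TGTTCT, at most 2 mismatches) were found in 0 of 33 members, against 0.422%, 1.77% and 1.77% of all genes. Hadha and Hadhb, the subunits of the trifunctional protein, are neighbours read in opposite directions from starts 273 bases apart in the RefSeq promoter table. Their male log2 fold changes were 0.10 and 0.04 and their female ones 0.22 and 0.16. A match describes letters in a window and is not a binding site.

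In females, edgeR called 0 of 38 members over 14220 genes, of which 0.0141% were called in all. Unadjusted p values under 0.05 were found for Acsl1, Etfdh and Mgll, which were higher (3 members, against 4.81% of all genes), and for Ucp2, which was lower (1 member, against 7.09%). DESeq2 called 0 members and 2.65% of all genes. Still, 32 of 38 log2 fold changes were above 0, against 47.6% of all genes, with a median of 0.157, against -0.015 over all genes. In 2 members all C-del values exceeded all mock values, which held for 5.71% of all genes. The median over the 38 of log2(CPM + 1) minus the mock mean was 0.239, 0.178, 0.063 and 0.165 in female C-del libraries, against 0.189, -0.028 and -0.083 in female mock libraries. Mock library 1 lay as high as the C-del libraries. Without mock library 1 the genes Lpl, Ppara and Ucp2 passed, and without mock libraries 2 and 3 the median fold change of the 38 was 0.002. In males the same measure was 0.281, 0.131, 0.046 and 0.070 in C-del libraries, against -0.007 to 0.020 in mock libraries. All 4 male C-del values exceeded the male mock values, libraries 3 and 4 by little.

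**Figure D4:**
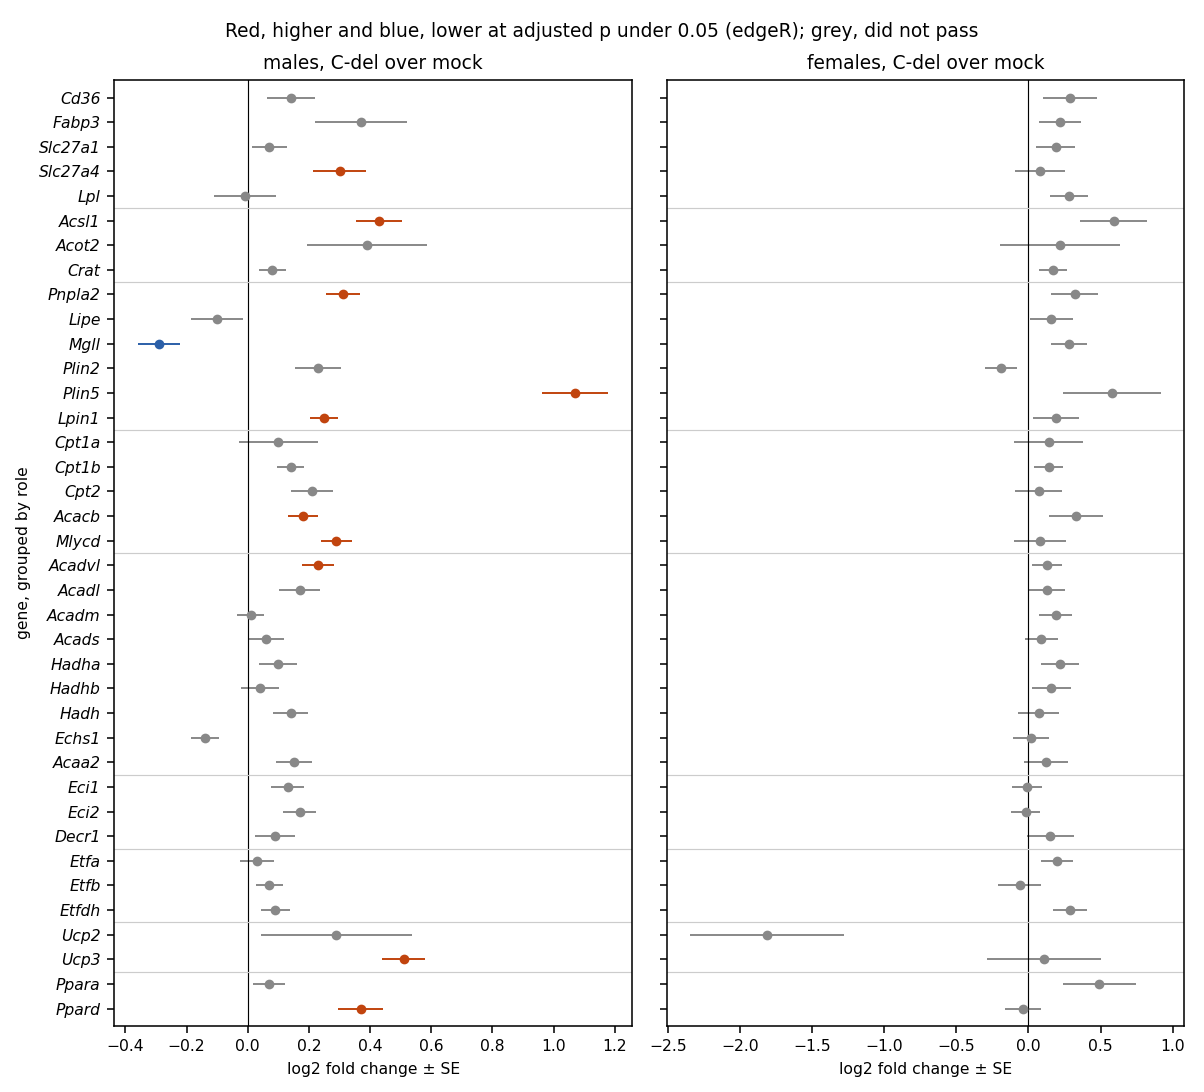
Log2 fold change, C-del over mock, with its standard error for each of the 38 genes in males and in females, ordered by role; the 2 panels have different horizontal scales. In males 34 of 38 genes lie above 0 and in females 32 of 38, and the female error bars are wider.

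Averaged over the sexes in a fit of all 15 libraries, 3 members rose and 0 fell (4.41% of 15272 genes were called, 2.42% as higher and 1.99% as lower). With an unadjusted p under 0.05, 1 member was lower, Ucp2 (10.8% of all genes were), and DESeq2 called 0 lower. Plin5 rose 1.77-fold (log2 0.83, SE 0.189, adjusted p = 0.0266), Acsl1 1.43-fold (log2 0.51, SE 0.123, adjusted p = 0.0291) and Pnpla2 1.24-fold (log2 0.32, SE 0.0859, adjusted p = 0.0462). Next came Etfdh (log2 fold change 0.19, adjusted p = 0.0719) and Acadvl (0.18, adjusted p = 0.0866). The count moved with single libraries. It was 0 when any 1 of 6 was left out (female C-del 4, male C-del 1 or 2, male mock 1, 3 or 4), 1 without female C-del 2 or male mock 2, and 18 without female mock 1. DESeq2 called 7 higher (3.95% of all genes), adding Acadvl, Cpt1b, Crat and Etfdh.

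The fold changes of females minus those of males gave 0 calls among the members (0.354% of 15272 genes were called), and DESeq2 called 1, Mgll, against 4.3% of all genes. Unadjusted p values under 0.05 were found for 1 higher member (7.09%) and 3 lower ones (9.76% of all genes). Mgll had the smallest p: its log2 fold change was 0.28 in females and -0.29 in males, a difference of 0.57 (SE 0.137, adjusted p = 0.0714). DESeq2 gave it an adjusted p of 0.00707, and edgeR called it without female mock library 1 (adjusted p = 0.0121) or 2 (adjusted p = 0.044). Plin2 differed by -0.43 (SE 0.129, adjusted p = 0.102), Ucp2 by -2.10 (SE 0.658, adjusted p = 0.129), Ppard by -0.41 (SE 0.138, adjusted p = 0.134) and Eci2 by -0.19 (SE 0.104, adjusted p = 0.356). Plin5, called in males and not in females, differed by -0.50 (SE 0.374, adjusted p = 0.513), and Ucp3 by -0.41 (SE 0.435, adjusted p = 0.657).

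Further genes of the same pathways were counted from lists that, apart from that of PPAR targets, do not hold the members. For every male edgeR list count below, the shares over all genes were 5.8% called higher and 5.37% called lower. Of 19 further storage genes tested in males, 4 rose and 0 fell in edgeR (1 lower at an unadjusted p under 0.05, 0 lower with DESeq2). G0s2, an inhibitor of the Pnpla2 lipase, had 50.1, 50.8, 67.7 and 69.3 CPM in male C-del libraries, against 18.2, 25.3, 20.2 and 26.6 CPM in male mock libraries, with a 2.64-fold rise (log2 1.40, SE 0.164, adjusted p = 0.00161). The droplet protein Plin3 had 55.5, 50.6, 46.0 and 47.2 CPM in male C-del libraries, against 34.2, 35.7, 32.9 and 33.3 CPM in male mock libraries (1.46-fold, log2 0.55, adjusted p = 0.000102). Thus a lipase and its inhibitor were both higher in male C-del libraries. Plin4 rose by 0.34 (adjusted p = 0.00322) and the acyltransferase Agpat3 by 0.17 (adjusted p = 0.0364) on the log2 scale. In the average of the sexes G0s2 (log2 0.94, adjusted p = 0.00556) and Plin3 (log2 0.27, adjusted p = 0.0276) passed as higher. Neither passed in females alone, where the log2 fold change was 0.47 for G0s2 (adjusted p = 0.525) and 0 for Plin3 (adjusted p = 0.993). Female Plin3 was 30.5 to 36.5 CPM in C-del libraries, against 30.4 to 39.3 CPM in mock libraries.

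Of 14 further uptake and activation genes tested in males, Got2, the mitochondrial aspartate aminotransferase also described as a plasma membrane fatty acid binding protein, rose by 0.28 on the log2 scale (adjusted p = 0.00223). Acsl3, an acyl-CoA synthetase linked to lipid droplet formation, had 14, 14.6, 17.9 and 20.8 CPM in male C-del libraries, against 27.6, 28.8, 22.2 and 22.7 CPM in male mock libraries. It fell by 0.59 on the log2 scale (adjusted p = 0.0186), the reverse of Acsl1. Of 30 further oxidation genes, 0 rose in edgeR (4 at an unadjusted p under 0.05, 1 with DESeq2) and 2 fell: Acadsb, a dehydrogenase of branched-chain substrates, by 0.32 (adjusted p = 0.00251) and Ehhadh, a peroxisomal enzyme, by 0.42 (adjusted p = 0.0416). Of 16 synthesis genes 1 rose, the sugar-sensing factor Mlxip (log2 0.24, adjusted p = 0.0221), and 0 fell in edgeR, against 5.8% and 5.37% of all genes. DESeq2 called 2 higher and 2 lower, 4 were lower without adjustment, and the fold change was above 0 for 6 of the 16. The desaturase Scd1 had the lowest male log2 fold change of this list, -1.47 (adjusted p = 0.0542). It had 36.1 to 42.9 CPM in male C-del libraries, against 54.5, 90.4, 178 and 108 CPM in male mock libraries 1 to 4, highest in library 3. Its female log2 fold change was 0.13 (adjusted p = 0.894). Of 19 partners and regulators of the PPARs, 3 rose and 1 fell in males. There 9 of the 19 fold changes were above 0, with a median log2 fold change of -0.03. Ppargc1b, a coactivator of mitochondrial genes, had 31.7, 32.8, 30.4 and 27.4 CPM in male C-del libraries, against 17.9, 20.5, 22.0 and 21.0 CPM in male mock libraries (1.5-fold, adjusted p = 0.000224). In females it had 46.3, 43.7, 41.2 and 49.3 CPM in C-del libraries, against 33.4, 27.6 and 20.2 CPM in mock libraries. It did not pass there in edgeR (log2 fold change 0.73, adjusted p = 0.152). In the average Ppargc1b rose by 0.66 on the log2 scale (adjusted p = 0.000377). Its paralogue Ppargc1a did not pass in males (log2 fold change -0.36, adjusted p = 0.4) or in females (0.47, adjusted p = 0.265). Esrra (log2 0.23, adjusted p = 0.00902) and Sirt3 (log2 0.28, adjusted p = 0.0155) rose and Sirt1 fell by 0.41 (adjusted p = 0.0179) in males.

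The list of known PPAR target genes holds many of the members, so its calls are not separate from those above. Of 28 tested in males, 5 rose (Ucp3, Mlycd, Pnpla2, Acsl1 and Acadvl, all members) and 1 fell (Ehhadh, not a member). Pdk4, a strong PPAR and fasting target that turns muscle from glucose to fat, did not pass. It had 371, 356, 197 and 202 CPM in male C-del libraries, against 271, 254, 200 and 200 CPM in male mock libraries (log2 fold change 0.29, adjusted p = 0.571). In females it had 741, 951, 146 and 847 CPM in C-del libraries, against 638, 679 and 180 CPM in mock libraries. The female libraries low in Pdk4, C-del 3 and mock 3, were also those low in Ucp3 and Plin5. Of 14 genes of the fasting and glucocorticoid response tested in males, 7 rose and 0 fell in edgeR (0 lower at an unadjusted p under 0.05 or with DESeq2), among them Ddit4 (4.91-fold, adjusted p = 3.03e-05) and Per1 (1.61-fold, adjusted p = 3.82e-06). The fold change was above 0 for 11 of the 14, and 5.8% of all genes were called higher in males. In females 0 of 15 passed in edgeR, and DESeq2 called 3 higher. There the log2 fold change was 0.24 for Ddit4 (adjusted p = 0.63) and 0.65 for Per1 (adjusted p = 0.171). The female minus male difference gave 0 higher and 2 lower calls in edgeR. The part of that response in the member changes was not tested.

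**Figure D5:**
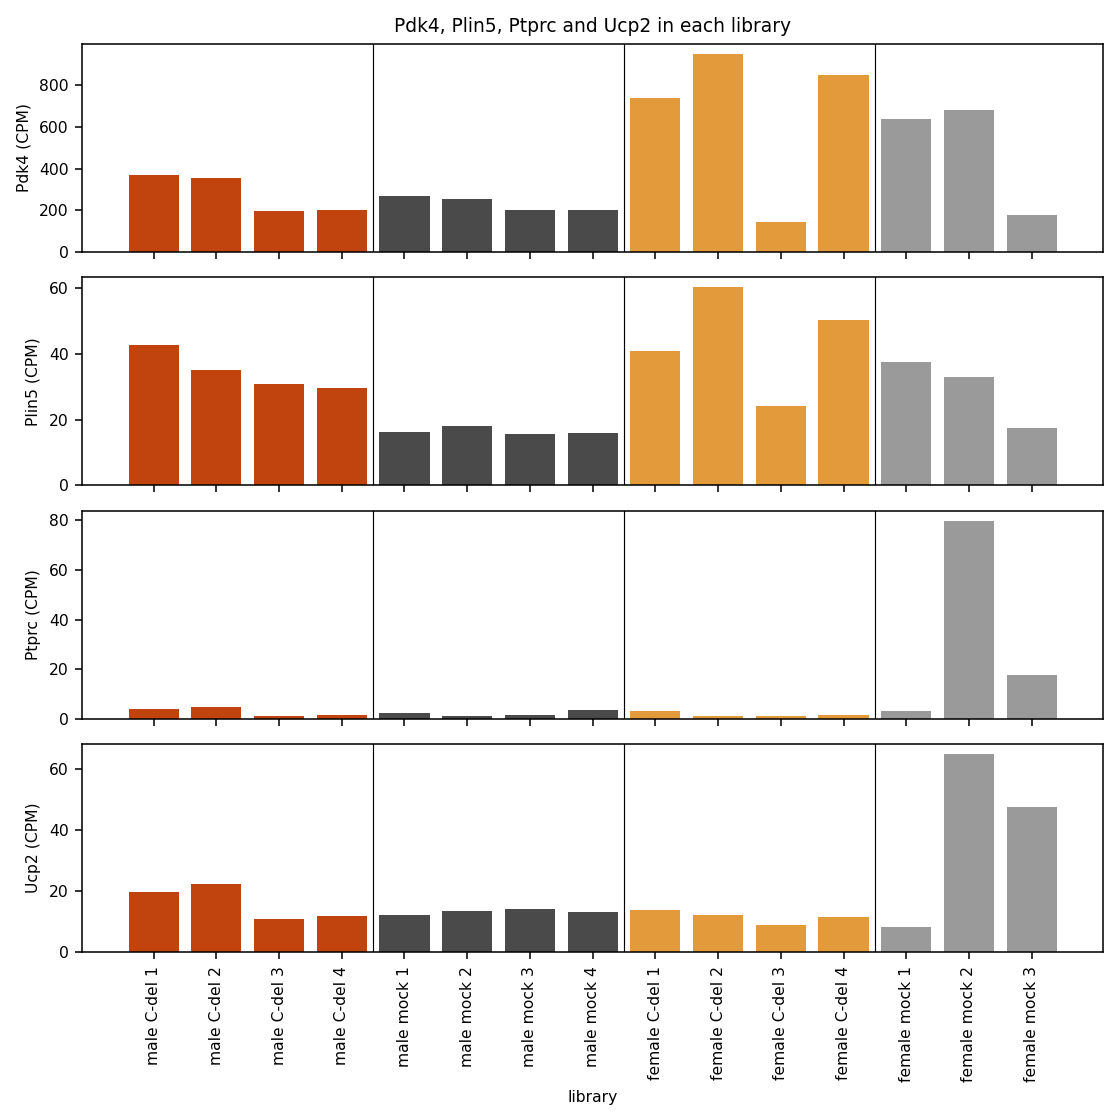
CPM of Pdk4, Plin5, the leukocyte marker Ptprc and Ucp2 in every library (1 bar each), with C-del left of mock in each sex. Female C-del library 3 and mock library 3 are low in Pdk4 at 146 and 180 CPM, and female mock libraries 2 and 3 are high in Ptprc at 79.9 and 17.7 CPM and in Ucp2 at 64.8 and 47.5 CPM.

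Oxidative fibre marker sums were higher in C-del muscle of both sexes, without overlap. The summed 11 slow and oxidative fibre markers were 6130 to 8300 CPM in male C-del libraries, against 5170 to 5830 CPM in male mock libraries, and 12900 to 15500 CPM in female C-del libraries, against 6450 to 11600 CPM in female mock libraries. In males 1 of these 11 rose, myoglobin (Mb, log2 0.41, adjusted p = 0.0246), and Mb and Myh2 made up most of the sum. The male fold change was above 0 for 5 of the 11, with a median log2 fold change of -0.02. Casq2 (log2 fold change -0.23, adjusted p = 0.113) and Tnnc1 (-0.51, adjusted p = 0.187) pointed lower in males. The female fold change was above 0 for 7 of the 11, with a median log2 fold change of 0.225. In females 0 passed with edgeR, while DESeq2 called 3 higher. Myh7, Tnni1, Tnnt1 and Tnnc1 pointed lower in females, at log2 fold changes of -0.28, -0.5, -0.48 and -0.59. In the average 2 rose, the fast oxidative myosin Myh2 (log2 0.78, adjusted p = 0.000759) and Myoz2 (log2 0.90, adjusted p = 0.0169). The 10 fast glycolytic fibre markers summed to 118000 to 143000 CPM in male C-del libraries, against 133000 to 143000 CPM in male mock libraries, and to 107000 to 119000 CPM in female C-del libraries, against 111000 to 138000 CPM in female mock libraries. In male C-del libraries 1 to 4 the fast sums were 120000, 118000, 137000 and 143000 CPM. The slow and oxidative sums there were 8300, 7840, 6130 and 6280 CPM, so libraries 1 and 2 differed from 3 and 4 in both. Of the 10 fast glycolytic markers, the fast myosin Myh1 rose in males (log2 0.39, adjusted p = 0.0114), 3 others had an unadjusted p under 0.05 in the lower direction, and the calcium buffer Pvalb fell by 0.41 in the average (adjusted p = 0.0285). The 14 adipocyte markers summed to 1790 to 2590 CPM in male C-del libraries, against 2790 to 3130 CPM in male mock libraries, and to 3300 to 5310 CPM in female C-del libraries, against 4220 to 5370 CPM in female mock libraries. Most of that sum was Car3, which muscle fibres express as well, and the defining adipocyte gene Adipoq had 2.32 to 3.02 CPM in male C-del libraries, against 2.78 to 11.1 CPM in male mock libraries. In males 0 of 12 adipocyte markers tested passed in edgeR, while 2 were called lower by DESeq2. Without adjustment 1 was higher and 3 were lower at p under 0.05. The brown adipocyte gene Ucp1 was at 0 in 14 of 15 libraries. The 11 endothelial markers summed to 618 to 662 CPM in male C-del libraries, against 590 to 628 CPM in male mock libraries. In females they summed to 562 to 610 CPM in C-del libraries, against 486 to 495 CPM in mock libraries. The fold change was above 0 for 7 of the 11 in males. There edgeR called 0 higher and 1 lower, Cldn5 (log2 -0.83, adjusted p = 0.00403), and DESeq2 called 1 higher and 1 lower. In females 11 of 11 were above 0, with 0 calls in edgeR and 2 higher with DESeq2. The part of fibre type and of endothelial RNA in the member changes was not tested.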

How the data were processed

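The deposited values are expected counts, which may hold fractions. In each library, 14.6% to 17.3% of entries differed from a whole number by more than 0.001. The authors made them with featureCounts 2.0.0 on GRCm38.p6, per the submitters' processing notes, without normalization. For the aligner, the counting options and strand, the tool settings were not given in the sources used here. The library kit was stranded and selected mRNA, per the labels.

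The design had assumed whole counts, so the values were rounded before the planned count test. Column names of the female table hold the title numbers, and those of the male table match titles by group alone, so male numbers pair nothing. All columns were used.

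Genes were kept by filterByExpr (minimum count 10), TMM-scaled, and tested over the whole table in edgeR 4.0.16 (robust quasi-likelihood, R 4.3.3, limma 3.58.1), with Benjamini-Hochberg adjustment and a threshold of 0.05. Each sex was fitted alone. The average and the female minus male difference are contrasts of 1 joint fit (15 libraries). Each SE was taken as log2 fold change over the square root of F. All 38 members passed the filter in each fit. DESeq2 1.42.0 was an alternative, beside other scaling factors, other filters, single libraries left out and doubtful libraries left out. Pairs of libraries of a group differed beyond sampling noise, so none was counted as a copy. The female mock libraries differed most from each other, at 23.2, 35.7 and 40.2 on a scale of chi-square per gene. Pairs within the other groups reached at most 13.6. CPM use TMM-scaled library sizes, and lengths are the exon union in the GENCODE annotation of GRCm38. Tables and plots used Python 3.11.15, pandas 2.3.3, numpy 2.4.6 and matplotlib 3.10.9. The tests were tested on simulated data. False calls were 11 of 151 in the male fit, 4 of 78 in the female fit, 12 of 153 in the average and 2 of 71 in the difference. Of simulated 1.5-fold changes, 64% were recovered in the male fit, 8% in the female fit, 71.4% in the average and 14% in the difference. Of 1.25-fold changes, 30%, 2%, 36.2% and 2.04% were recovered. The 0 calls in females and in the difference therefore do not show that changes of this size were absent.

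Members and lists were chosen with earlier results of these data known. Named with values in every library are members that passed in a comparison, the 5 of smallest p where fewer than 5 passed, and their paralogues or partners. Of the other lists, up to 4 passing genes of smallest p are named. Ddit4, Per1, Scd1, Casq2, Tnnc1, Myh7, Tnni1, Tnnt1, Col11a1 and Ppargc1a were picked after their values were seen. So were a few members with values by library.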

Additional observations from a re-analysis of the deposited data

Results flagged for a closer look

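In each group of 4 libraries the highest or lowest value of every member was compared with the other 3. A library stood apart in 6 of 114 such groups, and chance alone gives about 1 in 20. Male C-del library 1 was high for Echs1 at 114 CPM, where the other C-del libraries had 103 to 104 CPM, and for Etfdh at 233 CPM, where they had 204 to 208 CPM. Female C-del library 1 was high for Acaa2 at 320 CPM, where the others had 243 to 251 CPM, for Decr1 at 279 CPM, where they had 190 to 202 CPM, and for Etfa at 354 CPM, where they had 325 to 330 CPM. Male mock library 1 was low for Ucp3 at 116 CPM, where the other mock libraries had 124 to 125 CPM.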

How the results depend on the processing

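The male count of 11 members called was 2 in the fit of all 15 libraries. It was 4 without mock libraries 3 and 4, 10 without C-del libraries 1 and 2, and 8 to 14 with single libraries left out. The female count of 0 was 0 to 3 with single libraries left out. The count of 3 for the average was 7 with DESeq2, 1 with no low-count filter, 1 without female mock libraries 2 and 3, 0 without male mock libraries 3 and 4, and 0 to 18 with single libraries left out. The count of 0 for the difference was 1 with DESeq2 and 0 to 3 with single libraries left out. Leaving out female mock libraries 2 and 3 turned 3 directions: Ucp2 in females to 0.49 (adjusted p = 0.606), Lpl in females to 0.00 (adjusted p = 0.999) and Ucp2 in the difference to 0.19 (adjusted p = 0.939). That setting leaves 1 female mock library, whose spread is taken from the other libraries. Plin5 in males stayed between 0.88 and 1.14 and kept its call in 18 of 18 alternatives. The cause of the other changes was not tested.

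With the female title numbers as a replicate block, 0 members were called. Libraries with the same number did not deviate together (correlations of -0.13, -0.01 and -0.04), so the numbers were not taken as pairs. Summing the further copies of genes, an alternative chosen after seeing the data, left the counts at 11, 0, 3 and 0.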
